A study of Mus musculus with 2 samples.

Results

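Glucocorticoid signalling inside pancreatic tumors was followed through 6 genes of the 19059 in the matrix: Hsd11b1, Nr3c1, Fkbp5, Tsc22d3, Sgk1 and Zbtb16. They were found by symbol, all 6 had a row, and they were chosen by their place in the pathway with earlier results of these data known, among them the level of Hsd11b1 in the fibroblasts of both libraries. That level is therefore given as a description. The study treated mice carrying orthotopic tumors of the KPC pancreatic cancer model with EIPA (10 mg/kg), which inhibits macropinocytosis, the engulfing of extracellular fluid, or with the vehicle DMSO, and its title concerns the identity of cancer-associated fibroblasts. Each of the 2 samples was 1 pool of 4 flash-frozen tumors, dissociated after fixation and read with a probe-based single-cell kit, so the counts are of probes bound to each transcript. Both samples were deposited as 1 matrix in which a number at the end of the cell barcode separates 2 libraries. No label ties that number to EIPA or DMSO, so values are given per library, a ratio is library 2 over library 1 by order alone, and no treatment direction is stated. With 1 library each, there is no replicate and no test.

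Glucocorticoids are steroid hormones whose active form binds the receptor encoded by Nr3c1, which then enters the nucleus and binds DNA. Hsd11b1 encodes the reductase that regenerates active hormone from its inert form within a tissue, H6pd supplies its cofactor, and Hsd11b2 encodes the enzyme that inactivates the hormone. Among the genes that the bound receptor induces in many cell types, Fkbp5 encodes a chaperone partner that lowers the receptor's affinity for hormone, Tsc22d3 encodes GILZ, an inhibitor of inflammatory transcription factors, Sgk1 encodes a kinase of ion transport and cell survival, and Zbtb16 encodes the transcription factor PLZF, which is also a lineage factor of innate-like lymphocytes.

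Library 2 held 11945 cells and 185474400 UMIs (unique molecular counts), and library 1 held 12337 cells and 203459556 UMIs, with medians of 10756 and 11695 UMIs per cell. The libraries shared 225 barcode sequences, 1.88% of those of library 2 and 1.82% of those of library 1. Clusters were named from marker genes. Fibroblasts (454 cells in library 2 and 367 in library 1) carried all 12 of their markers, macrophages or monocytes (718 and 687) all 12, T cells (342 and 122) all 10, dendritic cells (172 and 38) 8 of 10 with Cd209a at 0, and neutrophils (164 and 132) 7 of 9. Tumor cells were split in the naming by the mean log2 fold of 30 tumor markers. The fold was taken over the mean profile of the non-tumor classes, which were named first. The clusters called tumor cells (3124 and 3160) had a positive mean. The clusters called tumor-marked (4938 and 5822) carried at least 3 of these markers but had a negative mean. The split is thus by the markers on balance and not by any single keratin gene. Epithelial markers were found in every class. Their level stood at 26.3% and 23.6% of the tumor level in fibroblasts of library 2 and library 1, at 28.4% and 40.4% in macrophages, at 57.1% and 52.4% in neutrophils and at 55.5% and 70.0% in T cells. The same measure stood at 42.9% and 45.4% in tumor-marked cells and at 144% and 124% in islet cells. It is thus a level of epithelial markers and only a rough guide to the amount of tumor RNA. The measured share of tumor RNA below means this level. The 2 libraries differed in it in macrophages and T cells, and the part of tumor RNA in the ratios below was not tested except where a value is given.

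In GENCODE M21 on GRCm38, Hsd11b1 lies on chromosome 1 (193221634 to 193264075, minus strand), Fkbp5 on chromosome 17 (28399094 to 28517527, minus strand), Tsc22d3 on chromosome X (140539528 to 140600659, minus strand), Sgk1 on chromosome 10 (21882184 to 21999903, plus strand) and Zbtb16 on chromosome 9 (48654297 to 48836222, minus strand). RefSeq promoter windows (GRCm38.p6, the 250 bases before a start) matched 4 of the 6 genes, with 11 windows. They were searched on both strands for the palindromic glucocorticoid response element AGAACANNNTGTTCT, for the single receptor site AGAACA, which every full element also holds on both strands, and for the C/EBP-type motif TTGCNNAA. The full element occurred in 3 of 32851 promoter windows (0.00913%), the single site in 16.1% and the C/EBP-type motif in 9.56%. One of the 3 windows with the full element belonged to Sgk1, which holds it in 1 of its 6 windows, from 189 to 175 bases before the start. The Hsd11b1 window held none of the 3 motifs. Both windows lie before a start inside the annotated span of their gene. Both windows are shown since these genes were the ones above 20 CPM (defined with the levels) whose levels in fibroblasts differed between the libraries, on the plus strand at chr10:21993640-21993889 for Sgk1 and on the minus strand at chr1:193242361-193242610 for Hsd11b1, with the full element in capitals.
Sgk1: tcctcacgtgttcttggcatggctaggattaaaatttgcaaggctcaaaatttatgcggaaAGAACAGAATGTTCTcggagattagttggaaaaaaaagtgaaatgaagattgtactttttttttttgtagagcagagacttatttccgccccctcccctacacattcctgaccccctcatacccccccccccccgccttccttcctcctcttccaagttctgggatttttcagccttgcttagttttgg
Hsd11b1: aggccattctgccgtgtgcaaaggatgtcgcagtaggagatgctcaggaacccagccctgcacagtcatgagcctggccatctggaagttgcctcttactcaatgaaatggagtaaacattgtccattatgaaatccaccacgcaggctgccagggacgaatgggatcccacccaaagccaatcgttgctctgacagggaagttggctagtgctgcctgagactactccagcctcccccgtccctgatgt
A match of letters is a description of the window and not evidence of binding in these cells.

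Hsd11b1 was a fibroblast gene in library 1 and was spread over fibroblasts, neutrophils and T cells in library 2. Levels are UMIs of the gene over all UMIs of the class, scaled to CPM, with exact Poisson 95% intervals that cover counting error only. Fibroblasts held 20.3 CPM in library 2 (69 UMIs, 15.8 to 25.7) and 127 CPM in library 1 (324 UMIs, 113 to 141). Neutrophils held 29.1 CPM in library 2 (13 UMIs) and 18.1 CPM in library 1 (8 UMIs), and T cells held 13.9 CPM (23 UMIs) and 8.39 CPM (9 UMIs). In library 1 fibroblasts stood 6.99-fold above the next class, neutrophils, with intervals apart. In library 2 neutrophils, fibroblasts and T cells followed each other with overlapping intervals. All leukocytes together (1396 and 979 cells) held 7.74 CPM in library 2 and 4.10 CPM in library 1, and T cells and dendritic cells made up more of them in library 2. Pericytes and smooth muscle held 5.59 and 10.3 CPM on 2 and 3 UMIs, macrophages 2.21 and 1.38 CPM, and blood endothelial cells 0 and 1.63 CPM. Tumor cells held 0.468 and 0.523 CPM and tumor-marked cells 0.521 and 0.619 CPM in library 2 and library 1, so tumor RNA at its measured share adds under 1 CPM to any other class.

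**Figure D1:**
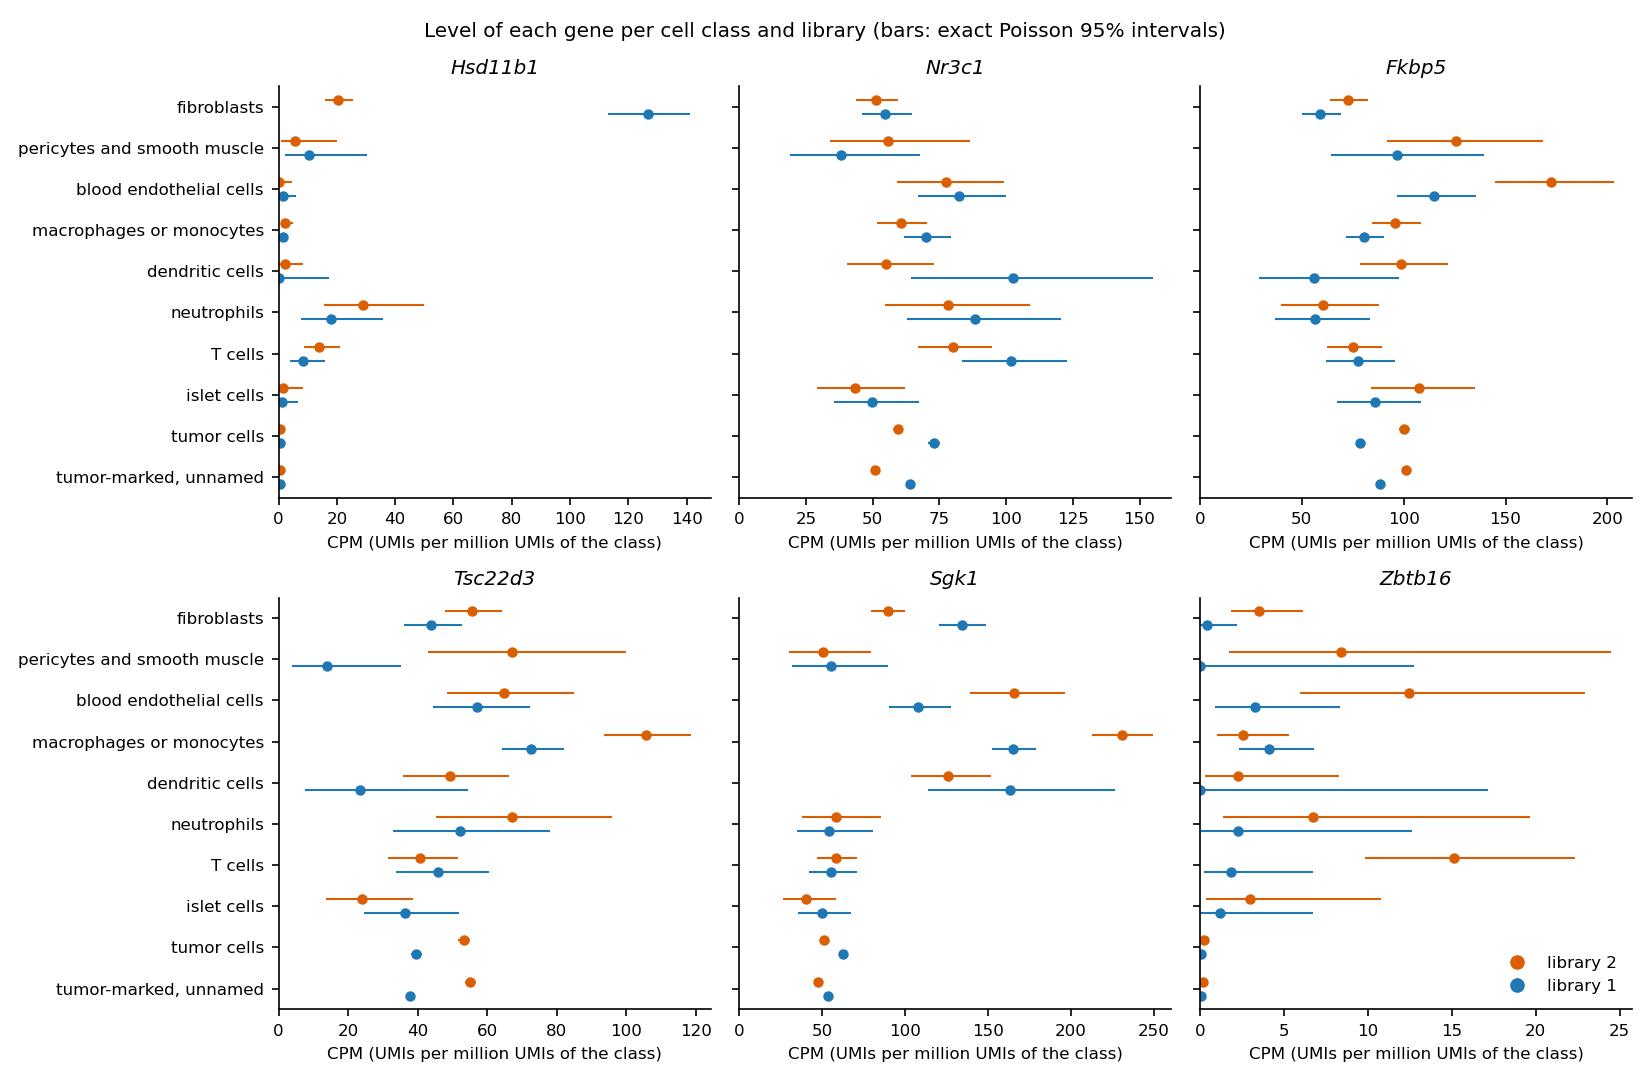
Level of each gene (CPM, linear axes) in 10 cell classes, with library 2 above library 1 in each class; points are summed UMIs and bars are exact Poisson 95% intervals. Hsd11b1 reached 127 CPM in fibroblasts of library 1 and at most 29.1 CPM elsewhere, while Sgk1 was highest in macrophages or monocytes of both libraries.

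Between the libraries, Hsd11b1 in fibroblasts stood at a log2 ratio of -2.58 (95% interval of the CPM ratio -3.04 to -2.26), which is 6.24-fold higher in library 1. It was the only one of the 5 genes above 20 CPM in fibroblasts that differed by at least 2-fold with intervals apart, against 1.61% of 8641 genes lower and 1.2% higher in library 2. Since the gene was chosen for this level, nothing is read from that count. At least 1 UMI was found in 46 of 454 fibroblasts in library 2 (10.1%, exact interval 7.51 to 13.3) and in 80 of 367 in library 1 (21.8%, 17.7 to 26.4). The share in tumor cells was 0.832% and 0.949%, at median depths of 12709 and 12014 UMIs per cell against 4680 and 4665 in fibroblasts. With every cell thinned to 1000 UMIs, 1.68% of 417 fibroblasts in library 2 and 6.59% of 334 in library 1 still had a UMI. The 3 richest cells gave 29.0% of the UMIs in library 2 and 28.1% in library 1.

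In library 1 most of the Hsd11b1 UMIs of fibroblasts lay in 1 small sub-cluster, and in library 2 they were spread over several. Fibroblasts were clustered again without the 6 genes and the pathway genes, which gave 6 sub-clusters. Sub-cluster 6, led by Crabp1, a retinoic acid binding protein, Igf2, a growth factor, and Cyp26a1, which degrades retinoic acid, made up 3.08% of fibroblasts in library 2 (14 cells) and 17.2% in library 1 (63 cells). A marker was counted for a sub-cluster where it reached 20 CPM and at least 2-fold its level in the other sub-clusters together. By this count sub-cluster 6 carried 3 of the 10 markers of myofibroblastic and none of the 11 of inflammatory fibroblasts. Markers short of that fold could still be detected, as C3 was there at 504 CPM in library 2 and 278 CPM in library 1. Sub-cluster 6 held 24.6% of the Hsd11b1 UMIs of fibroblasts in library 2 (17 UMIs) and 82.1% in library 1 (266 UMIs). In library 2 the largest part, 33.3% (23 UMIs), lay in sub-cluster 1, which held 4.94% (16 UMIs) in library 1. The level of sub-cluster 6 was 92.1 CPM in library 2 (53.7 to 147) and 344 CPM in library 1 (304 to 388). Sub-cluster 6 was thus both rarer in library 2 and lower per UMI. Its library 2 level rests on few cells, with 10 of the 17 UMIs in the richest cell and 76.5% in the 3 richest. In library 1 the richest cell held 41 of the 266 UMIs and the 3 richest held 34.2%. The Poisson intervals do not cover such differences between cells. A UMI was present in 7 of the 14 cells of sub-cluster 6 in library 2 and in 44 of its 63 cells in library 1. Its cells held a median of 9970 UMIs, against 1630 to 9129 in the other sub-clusters. Sub-cluster 5, which carried 5 of the 10 markers of myofibroblastic cancer-associated fibroblasts, held 31.2 CPM in library 2 (4 UMIs) and 93.4 CPM in library 1 (14 UMIs), with overlapping intervals. Sub-cluster 3 held 9.47 and 40.0 CPM with intervals apart, and it also carried tumor, macrophage and neutrophil markers. In sub-cluster 1, with 4 of 10 myofibroblastic markers, 3 pericyte markers and the plasma cell genes Jchain and Igkc at its head, the order was the other way, 38.3 CPM in library 2 and 20.6 CPM in library 1, and the intervals overlapped. Sub-clusters 2 and 4, which carried 4 and 5 of the 11 markers of inflammatory fibroblasts, held 7.74 and 15.2 CPM and 19.0 and 16.2 CPM on at most 7 UMIs each.

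With library 2 weighted to the share of UMIs that each sub-cluster holds in library 1, Hsd11b1 stood at 44.5 CPM in library 2 and 127 CPM in library 1, a log2 ratio of -1.49 in place of -2.58. With library 1 weighted to the shares of library 2, the levels were 20.3 CPM in library 2 and 46.3 CPM in library 1, a log2 ratio of -1.15. Without sub-cluster 6 the log2 ratio was -0.96. These settings were added after the sub-clusters were seen.

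**Figure D2:**
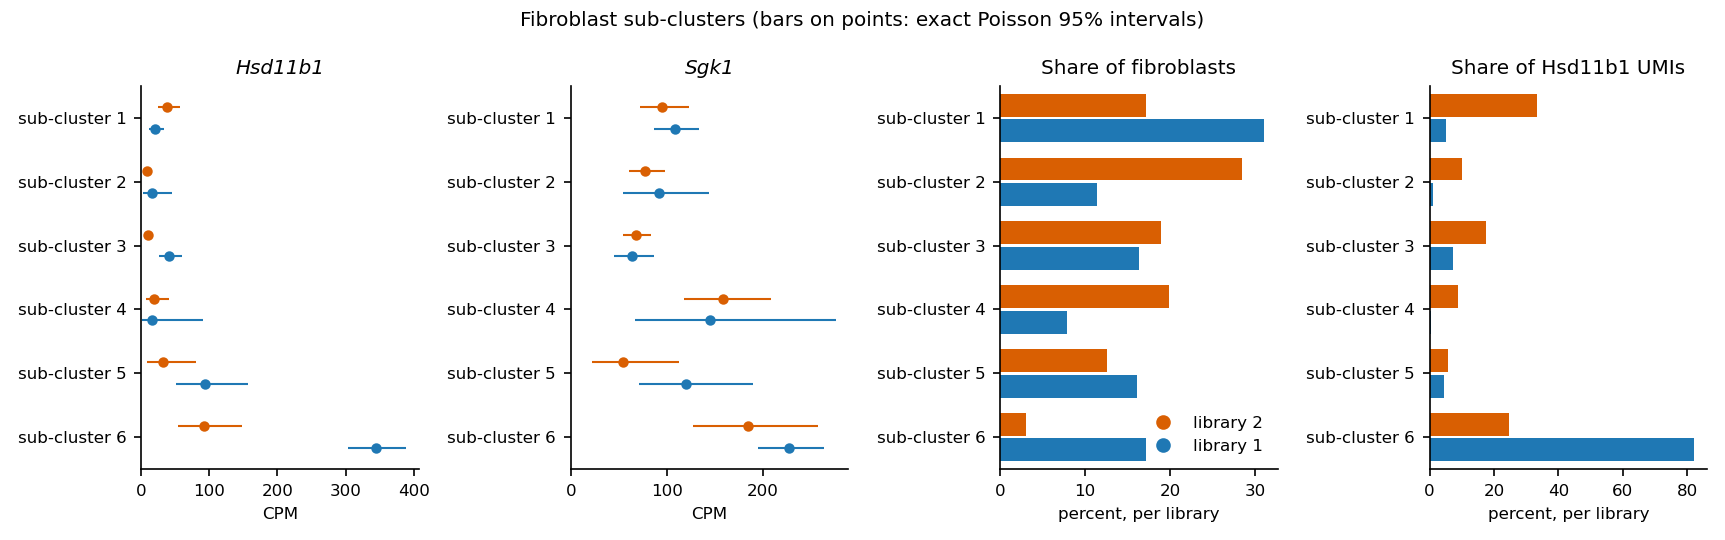
Hsd11b1 and Sgk1 level (CPM, with exact Poisson 95% intervals) in the 6 fibroblast sub-clusters, and each sub-cluster's share of fibroblasts and of fibroblast Hsd11b1 UMIs (percent, bars from 0), with library 2 above library 1. Sub-cluster 6 held 82.1% of the Hsd11b1 UMIs of library 1 in 17.2% of its fibroblasts.

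Among leukocytes, Hsd11b1 was detected mainly in neutrophils and T cells. Fibrillar collagen genes, which mark fibroblast RNA, were also detected in these classes. At the ratio of Hsd11b1 to collagen UMIs over all fibroblasts of a library, which differs between fibroblast sub-clusters, the collagen UMIs in neutrophils correspond to 0.0380 Hsd11b1 UMIs in library 2 and 0.438 in library 1, where 13 and 8 were counted. In T cells they correspond to 0.347 and 0.461 UMIs, where 23 and 9 were counted. In macrophages, with 6 and 5 UMIs counted, they correspond to 1.04 and 1.76. Among neutrophils with a UMI of Siglecf, a receptor of eosinophils and of a tumor neutrophil state in mice, 11 of 77 (14.3%, interval 7.35 to 24.1) in library 2 and 4 of 52 (7.69%, 2.14 to 18.5) in library 1 had Hsd11b1. Among neutrophils without one, 2 of 87 (2.30%, 0.280 to 8.06) and 2 of 80 (2.5%, 0.304 to 8.74) had it. The median depths were 1374 UMIs with Siglecf against 825 without in library 2, and 1303 against 906 in library 1. Hsd11b1 was found in 19 T cells of library 2 and 7 of library 1, of which 15 and 6 also had Cd3e, a subunit of the T cell receptor complex. By T cell marker, 9 of 224 cells with CD8 genes alone and 7 of 54 with Cd4 or Foxp3 alone had Hsd11b1 in library 2, and 3 of 81 and 1 of 15 had it in library 1. The T cells with Hsd11b1 were deeper than the rest, with medians of 3662 UMIs against 1803 in library 2 and 11650 against 2871 in library 1. Neutrophil genes were also present in some of them, with Csf3r in 4 of 19 and 2 of 7. The log2 ratio in T cells, 0.67, was -0.72 with automatic doublet thresholds, -0.34 from per-cell shares and -0.16 in thinned cells. In neutrophils, at 0.66, it was -0.05 with automatic thresholds. The part of fibroblast RNA in these counts was not tested.

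The partners of Hsd11b1 were distributed otherwise. H6pd stood at 287 CPM in library 2 and 303 CPM in library 1 in fibroblasts and at 219 and 214 CPM in tumor cells. Hsd11b2, the inactivating enzyme, was highest in tumor cells, where it held 13.7 CPM in library 2 and 24.4 CPM in library 1, a log2 ratio of -0.79 with intervals apart. In fibroblasts it was at 2.35 and 2.74 CPM. Of 6 steroid synthesis genes, Star, which carries cholesterol into mitochondria, reached 42.6 CPM in library 2 and 46.9 CPM in library 1 in fibroblasts, against 15.8 CPM at most in the other classes. Cyp21a1 reached 53.1 and 52.7 CPM in tumor cells, but a near-identical pseudogene makes its identity uncertain in a probe assay.

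Nr3c1, the receptor, was detected in every class, over a range of 43.2 to 80.0 CPM in library 2 and 37.9 to 102 CPM in library 1. It stood at 51.2 CPM in library 2 and 54.7 CPM in library 1 in fibroblasts, at 60.5 and 70.2 CPM in macrophages, at 78.4 and 88.3 CPM in neutrophils, at 80.0 and 102 CPM in T cells, and at 59.4 and 72.9 CPM in tumor cells. All leukocytes together held 66.7 CPM in library 2 and 79.2 CPM in library 1. The lowest class was islet cells in library 2 (43.2 CPM) and pericytes and smooth muscle in library 1 (37.9 CPM on 11 UMIs), and the highest was T cells in library 2 and dendritic cells in library 1 (102 CPM on 22 UMIs). Every neighbour in the order of classes overlapped the next in both libraries, but classes farther apart in it did not. T cells stood above tumor-marked cells in library 2 (66.9 to 94.9 against 49.5 to 52.5) and above fibroblasts in library 1 (83.5 to 123 against 46.0 to 64.6). The level was lower in library 2 in 9 of 10 classes, all but pericytes and smooth muscle. In macrophages the log2 ratio of -0.21 turned to 0.11 in thinned cells, 0.07 after subtraction of tumor RNA and 0.03 from per-cell shares, and in fibroblasts that of -0.09 turned to between 0.05 and 0.21 under 4 settings. Intervals were apart in tumor cells (log2 ratio -0.29, interval -0.36 to -0.23) and tumor-marked cells (-0.32, -0.39 to -0.27). In these deep classes 31.1% and 37.5% of genes were lower in library 2 by the same call, so the count is near its background. Across the 14 tumor and tumor-marked clusters, Nr3c1 ran between 36.8 and 77.7 CPM in library 2 and between 51.5 and 90.7 CPM in library 1, and 13 of 14 were lower in library 2 (cluster 0 was the exception). Cluster 2, led by Kctd16 and the hypoxia-inducible peptide gene Adm, was the highest in both. The pooled tumor log2 ratio of -0.30 was -0.17 weighted to the clusters of library 1 and -0.28 weighted to those of library 2.

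Fkbp5 was highest in blood endothelial cells, with 172 CPM in library 2 (145 to 203) and 115 CPM in library 1 (96.8 to 136). It stood at 72.6 and 59.0 CPM in fibroblasts, 95.9 and 80.6 CPM in macrophages, 100.4 and 78.7 CPM in tumor cells, and 60.5 and 56.6 CPM in neutrophils. All leukocytes together held 87.5 CPM in library 2 and 77.0 CPM in library 1. Pericytes and smooth muscle, with 126 and 96.6 CPM, overlapped endothelial cells in both libraries. Library 2 was the higher in 9 of 10 classes, with T cells (75.1 and 77.4 CPM) the exception. In fibroblasts the log2 ratio of 0.30 (0.295) turned to -0.11 when weighted to the sub-clusters of library 1, and in macrophages that of 0.25 turned to -0.03 with automatic doublet thresholds. Intervals were apart in endothelial cells (log2 ratio 0.58), tumor cells (0.35) and tumor-marked cells (0.20), where 4.78%, 35.2% and 35.4% of all genes were higher in library 2 by that call. Tumor RNA at its measured share corresponds to 57.6 of the 60.5 CPM in neutrophils of library 2 and 44.3 of the 56.6 CPM of library 1, and to 56.0 of 75.1 CPM and 59.2 of 77.4 CPM in T cells. In endothelial cells it corresponds to 27.7 and 21.1 CPM. These values rest on the level of epithelial markers, which also varied among tumor cells, and are not measured amounts of tumor RNA.

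Within the tumor, Fkbp5 differed more between clusters than between libraries. It ran from 48.2 to 156 CPM in library 2 and from 37.2 to 149 CPM in library 1, a range of 3.24-fold and 4.00-fold. Cluster 8, led by the mitotic genes Ube2c and Nusap1 among others, was the highest in both libraries, level with cluster 14 (156 CPM, led by Cck and Mmp10) in library 2. With 573 cells in library 2 and 56 in library 1, cluster 14 held 99.5 CPM in library 1. Cluster 4, led by the tight junction gene Cldn4, was the lowest in both. Cluster 6, led by the mucin genes Muc5b and Muc5ac, held 132 CPM in library 2 and 141 CPM in library 1. Library 2 was the higher in 11 of 14 clusters. The pooled log2 ratio was 0.25. It was 0.05 with library 2 weighted to the UMI shares of the clusters in library 1, and 0.14 with library 1 weighted to those of library 2.

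**Figure D3:**
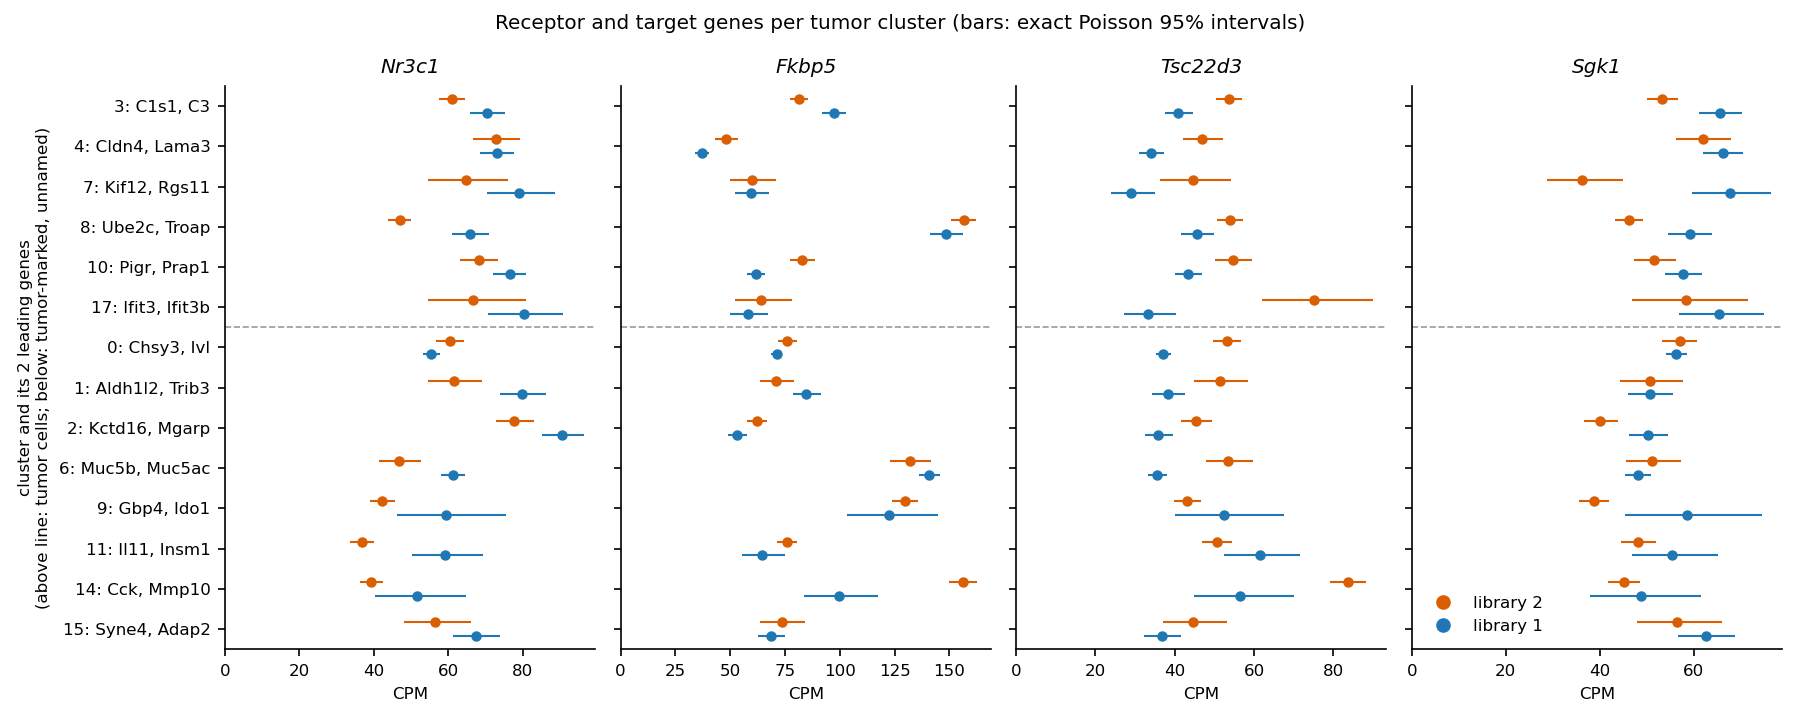
Nr3c1, Fkbp5, Tsc22d3 and Sgk1 level (CPM, linear axes, exact Poisson 95% intervals) in the 14 tumor and tumor-marked clusters, each named by its number and 2 leading genes, with library 2 above library 1. Nr3c1 was lower in library 2 in 13 clusters and Tsc22d3 higher in 12, while Fkbp5 differed more between clusters than between libraries.

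Tsc22d3 was highest in macrophages or monocytes, with 105 CPM in library 2 (93.6 to 118) and 72.6 CPM in library 1 (64.1 to 81.9), overlapping the next class in both. Tumor cells held 53.3 and 39.6 CPM, tumor-marked cells 55.1 and 37.8 CPM, fibroblasts 55.6 and 43.8 CPM, neutrophils 67.2 and 52.1 CPM, and T cells 40.6 and 45.7 CPM. All leukocytes together held 75.0 CPM in library 2 and 63.6 CPM in library 1. Tumor RNA at its measured share corresponds to 15.5 CPM of the level in macrophages of either library. Library 2 was the higher in 8 of 10 classes, with T cells and islet cells the exceptions. In fibroblasts the log2 ratio of 0.34 turned to -0.10 (-0.096) in thinned cells. Intervals were apart in macrophages (log2 ratio 0.53, interval 0.29 to 0.79), tumor cells (0.42, 0.35 to 0.51), tumor-marked cells (0.53, 0.48 to 0.61), and pericytes and smooth muscle (2.20, 0.74 to 4.27). In macrophages 14.2% of genes were higher in library 2 by that call, and none of the 4 genes above 20 CPM there passed a 2-fold difference. The pericyte value rests on 24 UMIs in 55 cells of library 2 and 4 UMIs in 63 cells of library 1, with 54.2% of the 24 in 3 cells. Among the 10 classes it is the only difference of at least 2-fold for the gene with intervals apart, a call that 0.88% of genes met in pericytes. In the tumor, library 2 was the higher in 12 of 14 clusters, and the log2 ratio was 0.43 weighted to the clusters of library 1 and 0.28 weighted to those of library 2, against 0.49 pooled. In the other two clusters, 9 and 11, library 2 was the lower, with 43.1 against 52.5 CPM and 50.6 against 61.5 CPM and overlapping intervals. The widest gap was in cluster 17, led by the interferon-induced genes Ifit3 and Rsad2, with 75.1 CPM in library 2 and 33.4 CPM in library 1. Those intervals were apart (62.1 to 90.1 and 27.3 to 40.4).

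Sgk1 was above 20 CPM in every class, and its direction differed between classes. Macrophages or monocytes held 231 CPM in library 2 (213 to 249) and 165 CPM in library 1 (152 to 179), the highest of all classes in both. Blood endothelial cells held 166 and 108 CPM, dendritic cells 126 and 163 CPM, and fibroblasts 89.4 and 134 CPM. T cells held 58.2 and 55.0 CPM, neutrophils 58.2 and 54.3 CPM, and tumor cells 51.3 and 62.7 CPM. All leukocytes together held 151 CPM in library 2 and 134 CPM in library 1. Tumor RNA at its measured share corresponds to 13.9 CPM in macrophages of library 2 and 23.0 CPM in those of library 1. In library 2 macrophages stood above endothelial cells with intervals apart, and in library 1 macrophages overlapped dendritic cells, and dendritic cells overlapped fibroblasts. Library 2 was higher with intervals apart in macrophages (log2 ratio 0.48, interval 0.32 to 0.65) and endothelial cells (0.62, 0.27 to 0.98). It was lower with intervals apart in fibroblasts (-0.58, -0.81 to -0.36), tumor cells (-0.28, -0.36 to -0.22) and tumor-marked cells (-0.17, -0.24 to -0.12). In fibroblasts 7.79% of genes were lower and 10.5% higher by that call. The direction in macrophages turned under another doublet setting. With Scrublet's automatic thresholds, which marked 0 cells in library 2 and 2622 in library 1, the log2 ratios of Sgk1 and Tsc22d3 there were -0.59 and -0.16.

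Among fibroblasts, sub-cluster 6 held the highest Sgk1 level in both libraries, 184 CPM in library 2 (34 UMIs) and 228 CPM in library 1 (176 UMIs), with overlapping intervals. Sub-cluster 4 followed with 158 and 145 CPM. Its 10 leading genes held Col14a1 and Dpt, both of inflammatory fibroblasts, and also the lymphocyte genes Cd7, Il2rb, Xcl1 and Igha, whose part in its levels was not tested. Sub-cluster 3 held 67.9 and 63.3 CPM. No sub-cluster had intervals apart, and library 2 was the lower in 4 of 6. Weighted to the sub-clusters of library 1 the log2 ratio was -0.24, weighted to those of library 2 it was -0.12, and without sub-cluster 6 it was -0.15, against -0.58 pooled. Within the tumor, library 2 was the lower in 11 of 14 clusters, with levels of 36.2 to 61.9 CPM in library 2 and 48.0 to 67.6 CPM in library 1.

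**Figure D4:**
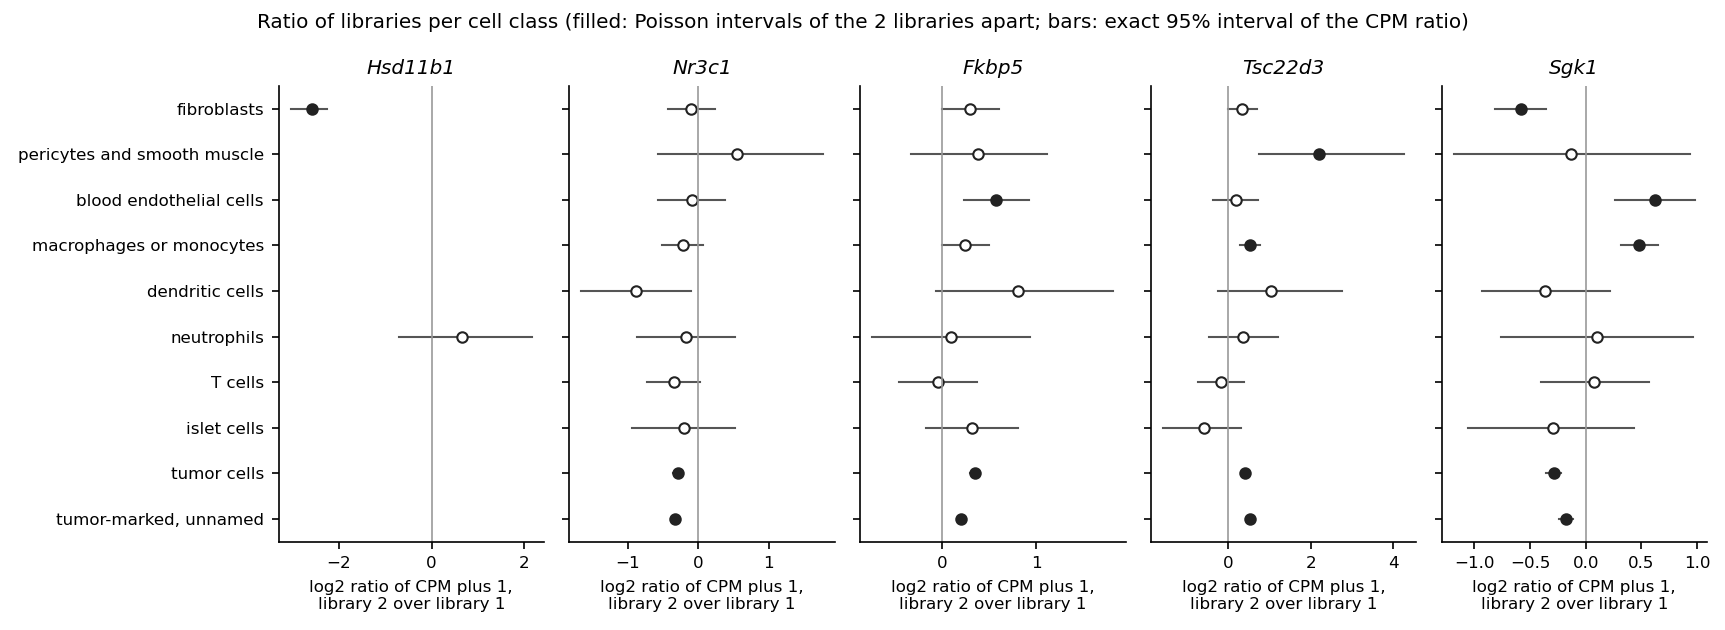
Log2 ratio of CPM plus 1, library 2 over library 1, for the 5 genes that reach 20 CPM, in the classes where they do; filled points have Poisson intervals of the libraries apart, and bars are exact 95% intervals of the CPM ratio, with axes of different range. Hsd11b1 stood at -2.58 in fibroblasts, Nr3c1 was below 0 and Fkbp5 above 0 in 9 of 10 classes each, and Sgk1 took both signs.

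Zbtb16 stayed under 20 CPM in all 10 classes. T cells of library 2 held 15.1 CPM (25 UMIs in 8 of 342 cells, interval 9.80 to 22.4), and T cells of library 1 held 1.87 CPM (2 UMIs in 1 of 122 cells, 0.226 to 6.74). Of the 25 UMIs, 24 lay in 7 cells with no UMI of Cd8a, Cd8b1, Cd4 or Foxp3, a group of 54 cells in library 2 and 20 in library 1, which held 168 and 17.7 CPM. Among the 8 positive cells of library 2, Cd3e was seen in 3, the lymphocyte transcription factor Gata3 in 3 and the interleukin receptor gene Il7r in 4, and the natural killer markers Ncr1 and Klrb1c in 0. Their median depth was 1874 UMIs. The level in T cells thus rests on 7 cells and says little of T cells as a whole. The log2 ratio of 2.50 (2.495) there was 1.30 (1.295) with no doublet removal and 0.13 with automatic doublet thresholds. Blood endothelial cells held 12.5 CPM in library 2 (10 UMIs) and 3.26 CPM in library 1 (4 UMIs), with overlapping intervals. All leukocytes together held 6.51 and 3.36 CPM. Fibroblasts held 3.53 CPM (12 UMIs) and 0.391 CPM (1 UMI), and tumor cells 0.251 and 0.0844 CPM. Library 2 was the higher in 9 of 10 classes, on at most 15 UMIs a class outside T cells.

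The wider pathway was read from 55 genes in 5 lists (activation and inactivation, steroid synthesis, receptors with chaperones and coregulators, induced targets, and repressed cytokine genes). In fibroblasts 37 of them reached 20 CPM and 3 differed by at least 2-fold with intervals apart, all lower in library 2, where 1.61% of all genes were lower and 1.2% higher by that call. Hsd11b1 was among the 3, and since it was chosen with this level known, nothing is read from its place in the count. The others were Mmp3, a matrix metalloproteinase (29.7 and 89.1 CPM, log2 ratio -1.55), and Ptgs2, which encodes the inducible cyclooxygenase (56.8 and 136 CPM, -1.25). The 18 induced targets above 20 CPM had a median of 0.01 on that scale (9 above 0 and 9 below), where all 8641 genes had one of 0.06. Angptl4, a lipase inhibitor, had the highest ratio of the 18 targets (246 and 148 CPM, 0.73). With intervals apart, 2 of the 18 were higher in library 2 and 4 lower, where 10.5% and 7.79% of all genes were. The 4 lower were Cdkn1a, Dusp1, Errfi1 and Sgk1 (-0.49, -0.49, -0.47 and -0.58). The 4 repressed cytokine genes above 20 CPM were all lower in library 2, with a median of -0.99.

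In macrophages or monocytes 41 pathway genes reached 20 CPM. By the same call 1 was higher in library 2, the chemokine gene Ccl2 (35.8 and 12.1 CPM, 1.49), where 1.57% of genes were. Lower were Nr3c2, the mineralocorticoid receptor (18.1 and 61.4 CPM, -1.71), Mmp3 (17.7 and 53.4 CPM), the secreted siderophore binder Lcn2 (16.2 and 42.9 CPM) and Cyp21a1 (9.96 and 21.5 CPM), where 3.6% of genes were. All 4 of these stood higher in tumor cells of both libraries than in macrophages of library 2, and tumor RNA in macrophages was 28.4% in library 2 and 40.4% in library 1; its part in them was not tested. Receptors, chaperones and coregulators had a median of -0.34 over 13 genes and induced targets one of 0.10 over 19, against -0.08 over all genes. In T cells 38 reached 20 CPM and 2 were called, both lower in library 2: Il1b (38.2 and 103 CPM, -1.40) and Ptgs2 (32.1 and 70.0 CPM, -1.10), with backgrounds of 0.739% lower and 1.82% higher. Il1b is a gene of myeloid cells, at 930 and 1358 CPM in neutrophils, and the part of neutrophil RNA in T cells was not tested. In tumor and tumor-marked cells together 33 reached 20 CPM and only Mt2, a metallothionein, was called, higher in library 2 (157 and 68.3 CPM, 1.19), with backgrounds of 0.434% higher and 0.153% lower. The related gene Mt1 stood at 431 and 256 CPM (0.75). The 16 induced targets above 20 CPM there had a median of 0.02.

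**Figure D5:**
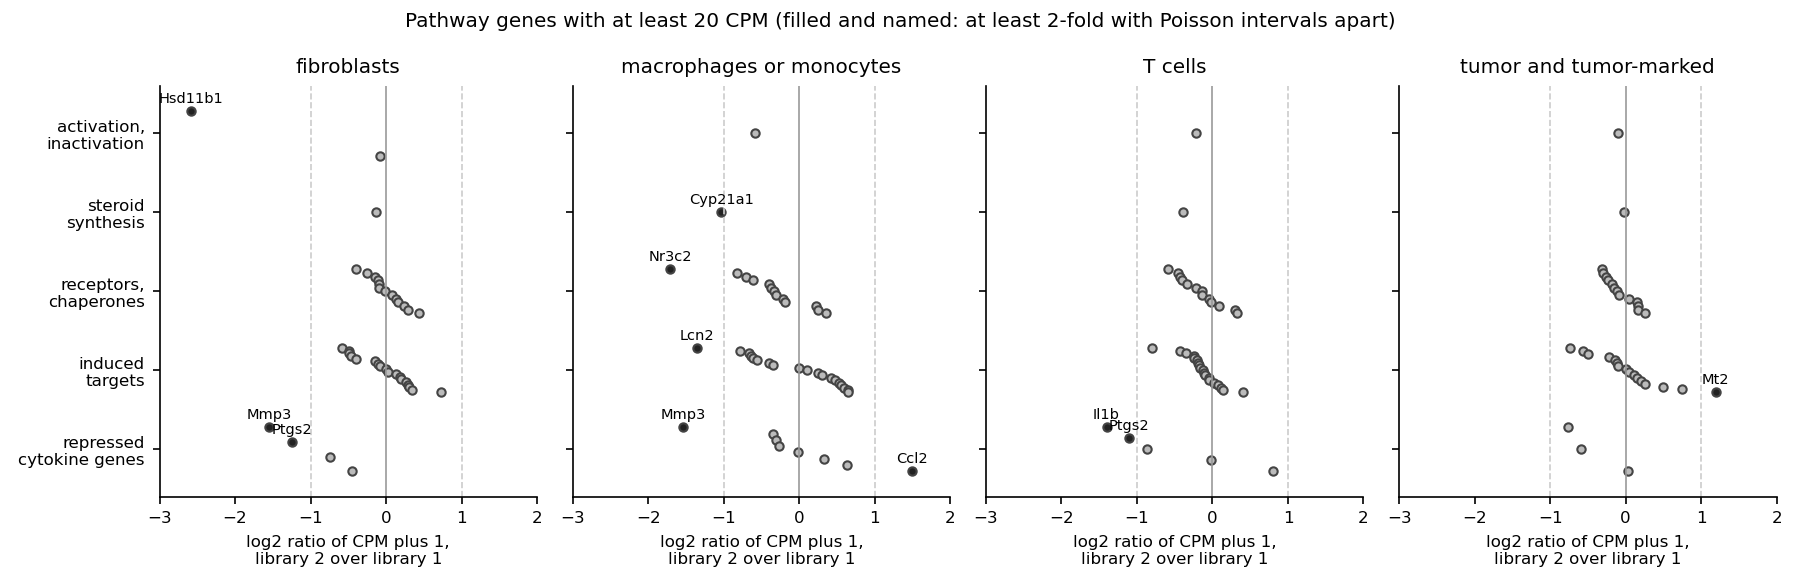
Log2 ratio of CPM plus 1, library 2 over library 1, of the pathway genes with at least 20 CPM, by list, in 4 classes; each point is a gene, dashed lines mark a 2-fold difference, and named, filled points passed it with intervals apart. Most of the 37 genes in fibroblasts lay near 0, with Mmp3 at -1.55, Ptgs2 at -1.25 and Hsd11b1, chosen with its level known, at -2.58.

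The genes with the most similar levels over the 20 profiles of 10 classes in 2 libraries were named for each of the 6, from 11507 genes, by Pearson's r of log2 CPM plus 1. These are descriptions over profiles that share libraries. For Hsd11b1 they were Gpc3, a glypican (0.87), the macrophage growth factor gene Csf1 (0.87), the glucose transporter gene Slc2a3 (0.84), Aoc1 (0.83) and G0s2 (0.78). For Sgk1 they were Galc and Naglu, which encode lysosomal enzymes, Cryzl2, Gpr157 and the scavenger receptor gene Stab1 (0.83 to 0.89). For Fkbp5 they were Dnajc14, Kitl, Sncg, Piezo1 and Tlnrd1 (0.82 to 0.86), and for Tsc22d3 Dusp12, Arrdc2, Dus2, Wdr44 and Haspin (0.80 to 0.90). For Nr3c1 they were Mta3, Prdm10, Nedd9, Hus1 and Mon1a (0.82 to 0.85), and for Zbtb16 Gimap4, Hectd3, Dpp8, Nt5dc1 and Ocel1 (0.74 to 0.78). With the libraries pooled into 10 profiles, 4 of the 5 were again among the 5 most alike for Fkbp5, 3 for Sgk1, 2 for Hsd11b1, 1 for Nr3c1 and 0 for Tsc22d3 and Zbtb16.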

How the data were processed

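The authors deposited raw UMI counts for each gene in each cell, made with Cell Ranger 8.0.0 (per the matrix header) on the mm10 build (per the submitters' processing notes). The counts come from hybridized probes, so a level depends on each gene's probes, and levels of different genes are not compared. The matrix pools both samples, and a number that ends each barcode separates 2 libraries that no label ties to EIPA or DMSO. The UMIs of each class in each library were added up and divided by their total (CPM), with exact Poisson 95% intervals. Shares have exact Clopper-Pearson intervals. Log2 ratios use CPM plus 1, library 2 over library 1, and their intervals are exact for the CPM ratio. A gene was called where it had at least 20 CPM in 1 library and Poisson intervals apart, with or without a log2 ratio of at least 1 in size. No test was made, since each treatment has 1 library and cells of a library do not replicate it.

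A cell needed 200 genes, 500 UMIs and a mitochondrial share under 20%, which took out 23 cells of library 2 and 5 of library 1. Scrublet (scanpy 1.11.5) scored doublets. The highest scores were removed at 0.8% per 1000 cells (1139 and 1217 cells), since the automatic thresholds marked 0 and 2622. The 10783 and 11115 cells left were clustered on 3000 variable genes, 50 components, 15 neighbors and Leiden resolution 1 (leidenalg 0.10.2). A cluster took the class whose markers had the highest mean fold when at least 3 reached 20 CPM and a fold of 2. Merging the tumor marker lists and setting apart tumor-marked clusters followed a look at the clusters. The sub-clusters of fibroblasts used 1976 variable genes, 30 components and a resolution of 0.5. Weighted levels take each library at the UMI shares of clusters in the other. Tumor RNA in a class is the median over 12 epithelial markers of its level over that of tumor and tumor-marked cells together.

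The genes and lists were chosen with earlier results of these data known. Named were the 6 genes in every class, pathway genes past the 2-fold call, and the 5 genes most alike in level; other pathway genes and the clusters described were picked with their values in view. The call was tested on simulated data. Alternatives were TMM factors (edgeR 4.0.16), median-of-ratios factors (DESeq2 1.42.0), other added CPM, per-cell shares, thinning, other cell filters, doublet settings and resolutions, single sub-clusters, subtraction of tumor RNA, and removal of the 3 richest cells. The weighting and the removal of sub-cluster 6 were added after the data were seen. Python 3.11.15, numpy 2.4.6, scipy 1.17.1, pandas 2.3.3 and R 4.3.3 were used.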

Additional observations from a re-analysis of the deposited data

Results flagged for a closer look

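Sgk1 went opposite ways in a pair of stromal classes. Its log2 ratio, library 2 over library 1, was 0.62 in blood endothelial cells and -0.58 in fibroblasts, with Poisson intervals of the libraries apart in both. The difference between the classes was not tested, since there is 1 library each.

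Zbtb16 was found in a cluster that the class comparisons leave out. Cluster 25, which carried no class name and was led by Sctr, Dcdc2a, Gpc3 and Mmp7, held 39.2 CPM in library 2 (4 UMIs in 5 cells) and 58.2 CPM in library 1 (11 UMIs in 9 cells). Both levels are above those in every named class. In library 2 the interval of 10.7 to 100 CPM overlapped that of T cells (9.80 to 22.4), and in library 1 it was 29.0 to 104. The richest cell held 3 of the 4 UMIs in library 2 and 6 of the 11 in library 1.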

How the results depend on the processing

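No paired analysis was possible because the columns carry no replicate and each treatment has 1 library. Scaling by TMM or median-of-ratios factors moved the median of all genes by at most 0.07 on the log2 scale. All values below are log2 ratios, library 2 over library 1, unless named otherwise, and the causes of the moves were not tested. Hsd11b1 in fibroblasts (-2.58) was -2.17 with 10 CPM added, -2.06 from per-cell shares, -2.25 in thinned cells, -1.81 (-1.805) with no doublet removal, -3.38 without the sub-clusters that carry other markers, -0.96 without sub-cluster 6, and -1.49 and -1.15 weighted to library 1 and to library 2. In sub-clusters 1 to 6 alone it was 0.86, -0.89, -1.97, 0.22, -1.55 and -1.89, so the direction turned in sub-clusters 1 and 4. Fibroblasts with a UMI were 1.68% in library 2 and 6.59% in library 1 after thinning. From per-cell shares fibroblasts stood -1.65 (-1.645) in library 2 and 0.75 in library 1 from the highest other class. With the libraries pooled, 2 of the 5 genes most like Hsd11b1 were kept, 1 for Nr3c1, and 0 for Tsc22d3 and Zbtb16. Sgk1 in fibroblasts (-0.58) was -0.33 from per-cell shares, -0.95 with automatic doublet thresholds, -0.83 without the sub-clusters that carry other markers, -0.15 without sub-cluster 6, -0.24 and -0.12 weighted to library 1 and library 2, and -0.19, -0.24, 0.10 (0.099), 0.12, -1.12 and -0.30 in sub-clusters 1 to 6. In macrophages Sgk1 (0.48) was 0.20 from per-cell shares, 0.31 with no doublet removal and -0.59 with automatic thresholds, which also turned Tsc22d3 (0.53) to -0.16. In tumor and tumor-marked cells the values weighted to library 1 were 0.05 (0.0535) for Fkbp5, -0.17 for Nr3c1, -0.11 for Sgk1 and 0.43 for Tsc22d3. Weighted to library 2 they were 0.14, -0.28, -0.22 and 0.28 (0.2785), and with resolution 2 0.30 (0.305), -0.37, -0.16 and 0.57. Without the cell filter Fkbp5 was 0.20, Nr3c1 -0.40 and Sgk1 -0.29. Without doublet removal Nr3c1 was -0.37 and Tsc22d3 0.57. Thinning gave 0.31 for Fkbp5 and -0.36 for Nr3c1, 10 CPM added gave -0.26 for Nr3c1 and 0.41 for Tsc22d3, and per-cell shares gave 0.55 for Tsc22d3. Pathway genes past the 2-fold call in macrophages were 5, and 2 from per-cell shares, 2 when thinned, 3 with no cell filter, 3 at 1000 UMIs, 1 with no doublet removal, 3 at resolution 0.5 and 2 at resolution 2. In T cells they were 2, and 1 with 10 CPM added, 1 when thinned and 5 with automatic thresholds. In neutrophils they were 3, and 6 at 1000 UMIs and 5 after subtraction of tumor RNA. In tumor and tumor-marked cells they were 1, and 2 at resolution 2 or with no low filter, which gave 5 against 3 in fibroblasts. Over 124 further settings of 8 single-gene ratios, 116 stayed within the counting interval and 8 moved, and 14 took the other sign. These were 4 for Nr3c1 in fibroblasts (0.05 to 0.21), 3 for Nr3c1 in macrophages (0.03 to 0.11), 3 for Hsd11b1 in T cells (-0.72 to -0.16), and 1 each for Hsd11b1 in neutrophils (-0.05), Fkbp5 in fibroblasts (-0.11), Fkbp5 in macrophages (-0.03) and Tsc22d3 in fibroblasts (-0.10). Zbtb16 in T cells (2.495) was 0.13 with automatic doublet thresholds and 1.295 with no doublet removal. Zbtb16 in every class, and Hsd11b1 outside fibroblasts and the tumor, had at most 25 UMIs a class, which limits the precision of these values.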

Other observations

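Among the pathway genes outside the 6, a few differed in the same direction across most classes. They were picked after their values were seen, so nothing is read from their counts. Of all genes that reached 20 CPM, 31.1% were lower and 35.2% higher in library 2 with intervals apart in tumor cells. In tumor-marked cells these shares were 37.5% and 35.4%, and in fibroblasts 7.79% and 10.5%. Dusp1, which encodes a phosphatase of MAP kinases and is induced by glucocorticoids in many cells, was lower in library 2 in all 10 classes, with intervals apart in 9. It held 161 CPM in library 2 and 469 CPM in library 1 in neutrophils, 129 and 202 CPM in macrophages, 114 and 160 CPM in fibroblasts, and 110 and 217 CPM in tumor cells. Its log2 ratios ran from -1.53 to -0.34. The metallothionein genes Mt2 and Mt1, which bind zinc and copper, were higher in library 2 in 9 and 8 of 10 classes, with intervals apart in 7 and 5. T cells were the class where Mt2 was lower with intervals apart, at 57.0 CPM in library 2 and 99.8 CPM in library 1. Of the 6 genes, Tsc22d3 was higher in library 2 in 8 of 10 classes, with intervals apart in 4. What sets the directions of Dusp1, Mt2 and Tsc22d3 was not tested.

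Several genes of the receptor complex were lower in library 2 beside Nr3c1. They too were picked after their values were seen, and the shares of all genes given above stand beside their counts. The chaperone gene Hsp90ab1 was lower in 9 of 10 classes, with intervals apart in 7, and the corepressor gene Nrip1 in 10 of 10, with intervals apart in 4. Nr3c2 was lower in 10 of 10, with intervals apart in 3. Hspa8, another chaperone gene, was higher in 7 of 10, with intervals apart in 4. Cluster 13, which carried no class name and was led by the heat shock genes Hspa1a and Hspa1b among others, held 80.0 CPM of Nr3c1 in library 2 and 137 CPM in library 1, and 94.4 and 55.8 CPM of Fkbp5, with intervals apart for both.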
